A study of Rattus norvegicus with 12 samples.

Results

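The Rnd, RGK and Rasd small GTPases were followed as 8 genes, Rnd1, Rnd2, Rnd3, Rhob, Rrad, Rem1, Gem and Rasd1, chosen by name among the 32761 features of the deposited table, with their levels in all 4 groups known. The levels and differences of these 8 genes are therefore given as a description, with no test. The RNA came from iAM-1, an atrial myocyte line of newborn Wistar rats whose immortalization can be switched off, and the cells were differentiated in medium with 2% serum and without doxycycline. The series asks how the transcriptome of these cells changes when the kinase gene Sbk2 is knocked down. Each of the 4 groups had 3 samples: untransduced cells, cells given a lentiviral vector with the control ppluc shRNA, cells given the vector with Sbk2 shRNA #1 and cells given the vector with Sbk2 shRNA #2, called shRNA 1 and shRNA 2 here. The vectors were added shortly after differentiation began. The labels of all samples name the same day and the same passage, so the groups do not differ in these by label. All groups, the untransduced one included, carry the large T antigen transgene LT-tsA58 on a lentiviral vector named for the MHCK7 promoter, a promoter of striated muscle. The untransduced cells received no shRNA vector, so they differ from the ppluc cells by transduction as well as by the shRNA. The shRNA sequences were not used here.

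Small GTPases switch between a GTP-bound active form and a GDP-bound inactive form, set by exchange factors, GTPase-activating proteins and dissociation inhibitors. The Rnd proteins are unusual among small GTPases in that they stay GTP-bound, so their activity depends in large part on their amount. Rnd1 and Rnd3 oppose the RhoA and ROCK pathway that drives actomyosin contraction. RGK proteins (Rrad, Rem1, Rem2 and Gem) bind the beta subunits of voltage-gated calcium channels and lower L-type calcium current in heart muscle, and Rasd1, first described as a gene induced by dexamethasone, acts on G-protein signalling of the Gi class.

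The promoter bases before the RefSeq start are shown for 3 of the genes with a matched sequence, Rnd3, Rhob and Rasd1. Shared regulation of these genes was not tested. RefSeq sequence (build GRCr8) was matched by symbol for 4 of the 8 genes, which also include Rem1. Each line gives the 250 bases before the start, 5′ to 3′ on the minus strand of the genome, which is the coding strand of these genes, with CArG and CCAAT boxes in capitals.
Rnd3, chr3:55998495-55998744, minus strand: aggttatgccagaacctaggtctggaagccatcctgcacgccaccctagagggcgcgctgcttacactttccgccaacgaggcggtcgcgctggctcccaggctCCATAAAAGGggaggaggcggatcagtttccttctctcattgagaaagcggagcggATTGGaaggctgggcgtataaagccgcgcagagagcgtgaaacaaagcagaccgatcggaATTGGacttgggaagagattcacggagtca
Rhob, chr6:37085205-37085454, minus strand: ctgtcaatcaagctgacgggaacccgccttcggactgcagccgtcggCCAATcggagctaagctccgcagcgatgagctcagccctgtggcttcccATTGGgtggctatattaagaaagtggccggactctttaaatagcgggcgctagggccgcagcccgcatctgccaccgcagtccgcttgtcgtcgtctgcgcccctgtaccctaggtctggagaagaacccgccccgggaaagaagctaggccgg
Rasd1, chr10:45267683-45267932, minus strand: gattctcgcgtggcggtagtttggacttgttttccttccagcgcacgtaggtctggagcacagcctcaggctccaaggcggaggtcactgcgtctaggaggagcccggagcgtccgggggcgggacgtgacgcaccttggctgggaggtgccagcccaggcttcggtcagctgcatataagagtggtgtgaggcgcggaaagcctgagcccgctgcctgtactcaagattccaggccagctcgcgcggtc

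In all, 6 motifs were searched on both strands of these windows, and a match is a description of letters and not a binding site. The Rnd3 window held 1 CArG box, the core of serum response factor sites, with the letters CCATAAAAGG at -146 to -137 from the start, and 1.50% of all 33360 promoters hold such a box in a window of this length. The Rnd3 window also held 2 CCAAT boxes (CCAAT, or ATTGG on the other strand), at -90 to -86 and at -30 to -26. The Rhob window held 2 CCAAT boxes, at -203 to -199 and at -154 to -150, and 34.0% of all promoters hold at least 1. An E-box (CANNTG) stood at -89 to -84 in Rhob and at -83 to -78 in Rasd1, as in 65.5% of promoters. The cyclic AMP response element (TGACGTCA), the AP-1 site (TGANTCA) and the composite element of ATF4 and C/EBP (TGATGNAAN) had no match in these 3 windows, against 1.59%, 6.35% and 3.38% of all promoters. GC content was 57.2% in Rnd3, 62.0% in Rhob and 64.0% in Rasd1, with a median of 51.6% over all promoters. No motif overlapped another.

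Group values in CPM (reads scaled to the library total) and TPM (the same with a correction for transcript length) are the authors' deposited averages. The reads of single libraries were recovered from these averages by arithmetic. The libraries of a group are lettered by their total and carry no replicate identity. Library totals ran from 30274847 to 47517427 reads, and 3 reads, the floor used here, were 0.0631 to 0.0991 CPM. Each difference is one of log2(CPM + 0.5), a scale on which changes of low genes come out too small, with the limma standard error from 12 libraries. The median feature stood higher in the Sbk2 shRNA cells, by 0.26 with shRNA 1 and by 0.50 with shRNA 2. Differences after trimmed-mean scaling, which removes most of that shift, are given beside those of the fitted GTPases against each shRNA's ppluc control. For other genes and comparisons they are given in part. A difference printed alone is as deposited and keeps that shift. The labels do not say that the 3 samples of a group were separate cultures, so p-values measure only the spread between these samples. The targeted gene Sbk2 lay at 42.6, 47.3 and 45.6 CPM in untransduced libraries, at 24.8 to 29.6 with ppluc, at 1.00 to 1.13 with shRNA 1 and at 0.620 to 0.719 with shRNA 2.

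The cells carried the markers of their label, and the summed levels of these markers moved with the groups. The summed CPM of 8 cardiac myocyte markers ran from 44916 to 50081 in untransduced cells and from 31427 to 36692 with ppluc. It ran from 14586 to 15005 with shRNA 1 and from 5717 to 7552 with shRNA 2. The 8 atrial markers, with Kcna5 at 0, summed to 30706 to 32148, 37614 to 43095, 20676 to 23712 and 12705 to 18148 in the same order. These sums follow the most abundant members, and not every marker was lower. The library ranges of the sums rest on abundant genes, which the check of the recovery on low averages did not cover. Against ppluc with shRNA 1, Actn2 lay at 0.03 and Nkx2-5 at 0.11, while the other cardiac markers were below 0. With shRNA 2 all 8 cardiac markers were below 0. Of the atrial markers, Nr2f2 lay at 0.83 and 0.85 with shRNA 1 and shRNA 2, and Gja5 at 1.64 and -3.84. The other fitted atrial markers were below 0 with both. The fibroblast markers Tcf21 and Lum, the endothelial markers Cdh5 and Emcn and the leukocyte markers Ptprc and C1qa were at 0 reads in all 12 libraries. The whole lists summed to 38.0 to 166 CPM for fibroblasts (7 genes, mostly from Col1a1 and Ddr2) and 56.4 to 225 for endothelium (5 genes, mostly from Kdr). The leukocyte list summed to 0.458 to 17.5 (5 genes, highest with shRNA 2 and mostly from Cd14). In the untransduced, ppluc, shRNA 1 and shRNA 2 groups, Col1a1 lay at 82.2, 134, 27.0 and 17.5 CPM. Kdr lay at 139, 146, 213 and 77.6 CPM in the same order. The neuron and glia list of 7 genes summed to 1.85 to 10.05 CPM. The 7 smooth-muscle and pericyte markers summed to 6401 to 18695, mostly from Acta2 and Tagln, with Rgs5 at 0. This sum was lowest with shRNA 2, where Myh11 and Notch3 were higher, at 17.6 and 22.1 CPM against 2.67 and 1.60 CPM with ppluc. The T antigen transcript had levels of 12.1 CPM without a shRNA vector and of 8.45, 9.08 and 19.2 CPM in the ppluc, shRNA 1 and shRNA 2 groups. The vector's eGFP transcript stood at 2417, 3347 and 2490 CPM in the ppluc, shRNA 1 and shRNA 2 groups. In such bulk samples fewer cells of a type and less RNA per cell cannot be told apart, and the part of these shifts in the values that follow was not tested.

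Rnd1 was the GTPase with the largest excess in the Sbk2 shRNA cells. Its product opposes RhoA and takes part in plexin signalling. The gene lies on chromosome 7 from 140349138 to 140356209 (Rnor_6.0). Rnd1 lay at 8.78, 9.19 and 10.2 CPM in the untransduced libraries and at 7.33, 6.62 and 6.17 CPM in the ppluc libraries. The shRNA 1 libraries lay at 83.1, 79.3 and 81.9 CPM, and the shRNA 2 libraries at 159, 178 and 190 CPM. No 2 groups overlapped, and the order of levels was shRNA 2, shRNA 1, untransduced, ppluc. The mean level was 12.1 times that of ppluc with shRNA 1, a difference of 3.51 ± 0.08 (SE), and 26.2 times with shRNA 2, a difference of 4.61 ± 0.08. After trimmed-mean scaling these differences were 3.25 and 4.09. The level with shRNA 1 was below that with shRNA 2 by a difference of -1.10 ± 0.08, or -0.84 after scaling. By the average of both shRNAs against ppluc, Rnd1 held rank 1 from the top of all 12493 features fitted. It held rank 3 with shRNA 1 alone and rank 11 with shRNA 2 alone.

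**Figure D1:**
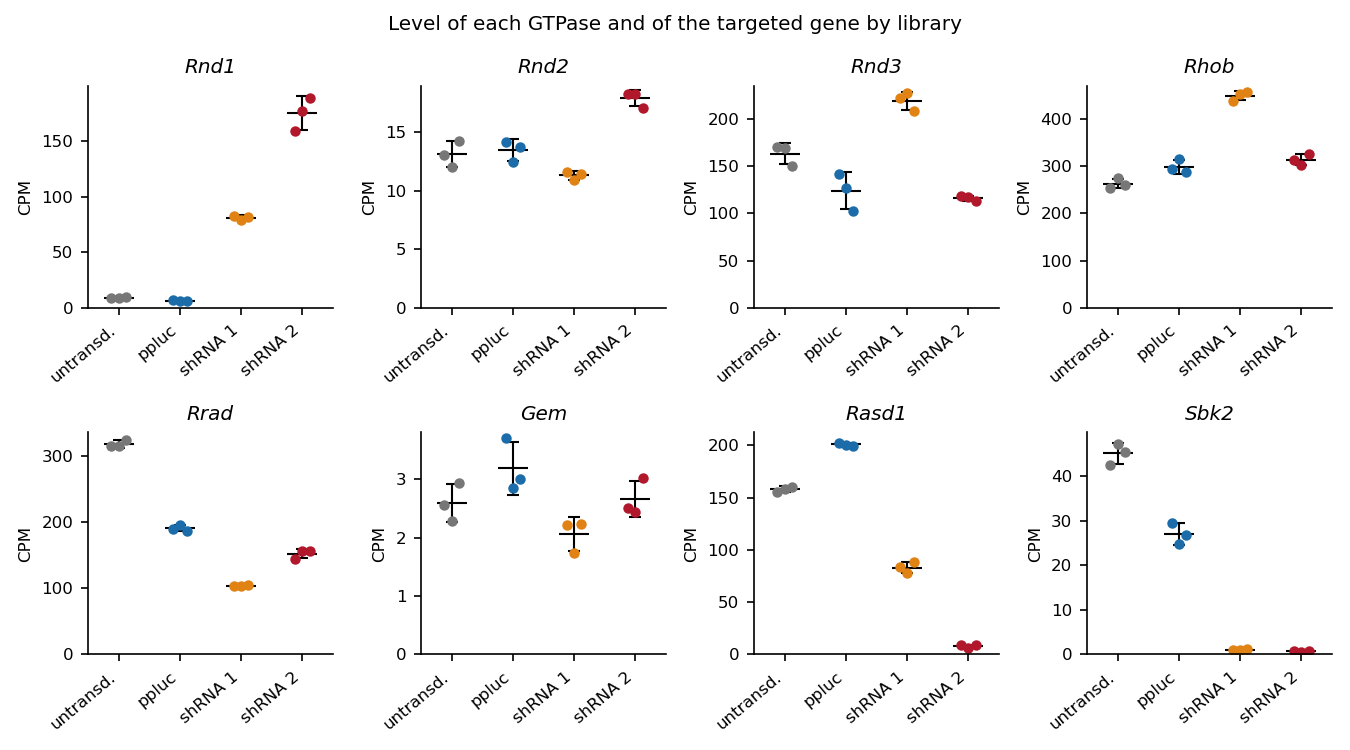
Level in CPM (y axis, linear from 0) of 7 GTPase genes and of Sbk2 in the 12 libraries (points), by group (x axis), with the mean and SD of 3 libraries as bars. Rnd1 reached 159 to 190 CPM with shRNA 2 and Rasd1 6.66 to 9.11 CPM, while Rhob and Rnd3 were highest with shRNA 1.

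Rnd3 (RhoE), an inhibitor of the kinase ROCK1, was the most abundant Rnd transcript by TPM in both control groups. The gene lies on chromosome 3 from 36642587 to 36660758. It lay at 170, 169 and 150 CPM in untransduced libraries and at 142, 127 and 103 CPM with ppluc. With shRNA 1 it lay at 222, 227 and 208 CPM, above every other library, and with shRNA 2 at 118, 117 and 113 CPM, inside the ppluc range. The shRNA 1 difference from ppluc was 0.83 ± 0.08 (0.56 after scaling). With shRNA 2 it was -0.079 ± 0.08 as deposited and -0.62 after scaling, and it moved to -0.21 when the lowest ppluc library was left out. The level with shRNA 1 exceeded that with shRNA 2 by 0.91 ± 0.08, or 1.17 after scaling.

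Rnd2, the third Rnd gene, known from neuronal migration, stayed low in every group. It lies on chromosome 10 from 89376530 to 89380101. Its libraries lay at 13.1, 12.0 and 14.2 CPM in untransduced cells and at 14.2, 12.4 and 13.7 CPM with ppluc, and these groups overlapped. They lay at 11.6, 10.9 and 11.4 CPM with shRNA 1, below every other library, and at 18.2, 18.2 and 17.1 CPM with shRNA 2, above every other library. The differences from ppluc were -0.24 ± 0.08 with shRNA 1 and 0.40 ± 0.08 with shRNA 2, and after scaling they were -0.50 and -0.12, so that the shRNA 2 difference changed sign.

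Set against each other per transcript length, the 3 Rnd genes changed places. Rnd3 made up 78.4% of their summed TPM in untransduced cells and 74.9% with ppluc, against 55.3% with shRNA 1 and 24.3% with shRNA 2. Rnd1 went from 8.33% and 7.41% to 38.6% and 68.0%, and Rnd2 held 13.3%, 17.7%, 6.09% and 7.71%. Their summed level was 110.6 and 84.9 TPM in the untransduced and ppluc controls, and 219.9 and 244.4 TPM in the shRNA 1 and shRNA 2 groups. The excess with shRNA 1 over ppluc was spread over Rnd1 and Rnd3, whereas with shRNA 2 Rnd3 stood at 59.3 TPM, against 63.6 TPM with ppluc. By the authors' TPM, Rnd1 held place 6 of the 8 genes in untransduced and ppluc cells, place 5 with shRNA 1 and place 2 with shRNA 2. With shRNA 1 it did not stand apart from Rasd1 just above it, and with shRNA 2 it did not stand apart from Rrad just below it, by the range of the 3 libraries, whose TPM was estimated as library CPM times the authors' ratio of TPM to CPM for that gene and group.

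**Figure D2:**
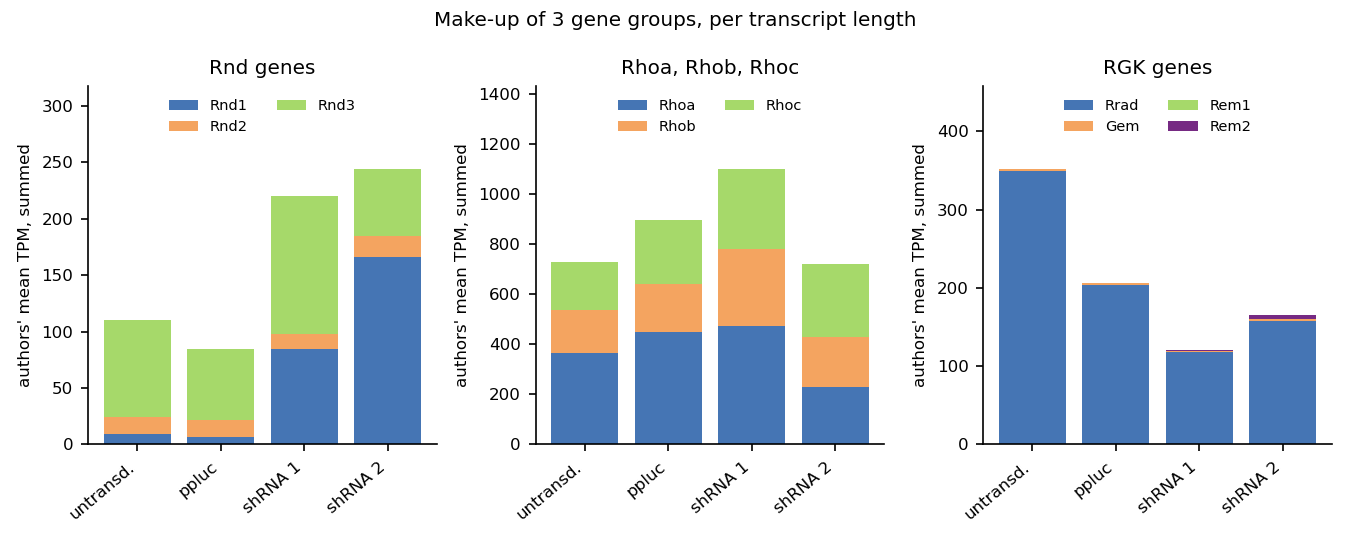
Summed level in TPM (y axis, authors' group means) of the Rnd genes, of Rhoa, Rhob and Rhoc, and of the RGK genes in the 4 groups (x axis), with each gene as a coloured segment and no error bars, since the deposited TPM values are group averages. Rnd1 was 7.41% of the Rnd sum with ppluc and 68.0% with shRNA 2, and Rrad was 95.2% to 99.2% of the RGK sum.

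Rhob encodes a short-lived GTPase of endosomes whose gene is induced by stress and growth factors. The gene lies on chromosome 6 from 33689127 to 33691301. Its libraries lay at 254, 274 and 260 CPM in untransduced cells and at 293, 315 and 287 CPM with ppluc. They lay at 437, 453 and 456 CPM with shRNA 1, above every other library, and at 311, 302 and 325 CPM with shRNA 2, where they overlapped the ppluc libraries. The difference from ppluc was 0.59 ± 0.05 with shRNA 1 (0.32 after scaling). With shRNA 2 it was 0.071 ± 0.05 as deposited and -0.47 after scaling. Rhob was the most abundant of the 8 genes by TPM in both Sbk2 shRNA groups, at 307.7 and 197.3 TPM.

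Rhob and its close relatives Rhoa and Rhoc did not move together. Rhoa, the main activator of ROCK, had group levels of 393 (untransduced), 500.2 (ppluc), 491 (shRNA 1) and 263 CPM (shRNA 2). It fell with shRNA 2 by 0.93 ± 0.05 (limma adjusted p = 1.5e-12), while with shRNA 1 its difference was -0.027 ± 0.05 (limma adjusted p = 0.61) as deposited and -0.30, past the threshold, after scaling. Rhoc, with 0.22 ± 0.04 and 0.18 ± 0.04 as deposited, stood at -0.052 and -0.36 after scaling. Rhoa made up 50.2% of the summed TPM of the 3 genes in both untransduced and ppluc cells, 43.0% with shRNA 1 and 32.2% with shRNA 2. The share of Rhob was 23.6%, 21.4%, 27.9% and 27.4% in the same order.

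Rrad (Rad), the RGK protein best known in heart, where it restrains L-type calcium channels until protein kinase A phosphorylates it, was the only RGK gene at a high level. It lies on chromosome 19 from 561727 to 564930. Its libraries lay at 315, 314 and 324 CPM in untransduced cells, at 189, 196 and 187 CPM with ppluc, at 103, 103 and 104 CPM with shRNA 1 and at 144, 156 and 156 CPM with shRNA 2. No 2 groups overlapped. The ppluc libraries were already below the untransduced ones by a difference of -0.74 ± 0.04. From ppluc the difference was -0.88 ± 0.04 with shRNA 1 and -0.33 ± 0.04 with shRNA 2, and after scaling it was -1.15 and -0.86. The shRNA 1 level was below that of shRNA 2 by a difference of -0.55 ± 0.04, or -0.29 after scaling.

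Gem and Rem1 were low or close to absent. Gem, an RGK protein that also inhibits ROCK and is known as an early-response gene, lies on chromosome 5 from 25349928 to 25353661. Its libraries lay at 2.56, 2.29 and 2.94 CPM in untransduced cells and at 3.71, 2.85 and 3.01 CPM with ppluc, at 57 to 143 reads over all 12 libraries. They lay at 2.21, 1.73 and 2.24 CPM with shRNA 1, below both control groups, and at 2.52, 2.45 and 3.02 CPM with shRNA 2, overlapping both. The differences from ppluc were -0.53 ± 0.14 and -0.22 ± 0.14, or -0.76 and -0.67 after scaling. Rem1, on chromosome 3 from 148108539 to 148116991, had 1 read in each of 2 shRNA 2 libraries and 0 reads in the other 10. It was below the filter on low values, so that 7 of the 8 genes entered the fit.

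Rem2, the fourth RGK gene and not among the 8, was near the floor in untransduced cells, at 0.194, 0.0286 and 0.228 CPM (1 to 8 reads). It lay at 1.12, 0.437 and 0.926 CPM with ppluc, 0.892, 1.28 and 0.985 CPM with shRNA 1 and 5.55, 7.84 and 6.18 CPM with shRNA 2. Against ppluc it rose with shRNA 2 by 2.43 ± 0.20 (limma adjusted p = 1.5e-09), to 7.88 times the mean level, and the difference with shRNA 1 was 0.25 ± 0.20 (limma adjusted p = 0.26). It also rose in ppluc against untransduced cells, by 1.01 ± 0.20 (limma adjusted p = 0.00030). Rrad still made up 95.2% of the summed RGK TPM with shRNA 2, with Rem2 at 3.28%.

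Rasd1 (Dexras1) had the largest deficit of the 8 genes. It lies on chromosome 10 from 46330368 to 46332172. Its libraries lay at 156, 159 and 161 CPM in untransduced cells and at 203, 201 and 199.8 CPM with ppluc. With shRNA 1 they lay at 83.4, 77.7 and 88.4 CPM, and with shRNA 2 at 9.11, 6.66 and 8.60 CPM (215 to 316 reads). No 2 groups overlapped. The ppluc mean was 2.42 times that of shRNA 1, a difference of -1.27 ± 0.08, and 24.7 times that of shRNA 2, a difference of -4.56 ± 0.08. After scaling the differences were -1.54 and -5.08. The level with shRNA 1 exceeded that with shRNA 2 by 3.29 ± 0.08, or 10.2 times. Rasd1 held rank 6 from the bottom of the 12493 features with shRNA 2, and rank 224 with shRNA 1. Its relative Rasd2 had 1 read in 1 of the 12 libraries.

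**Figure D3:**
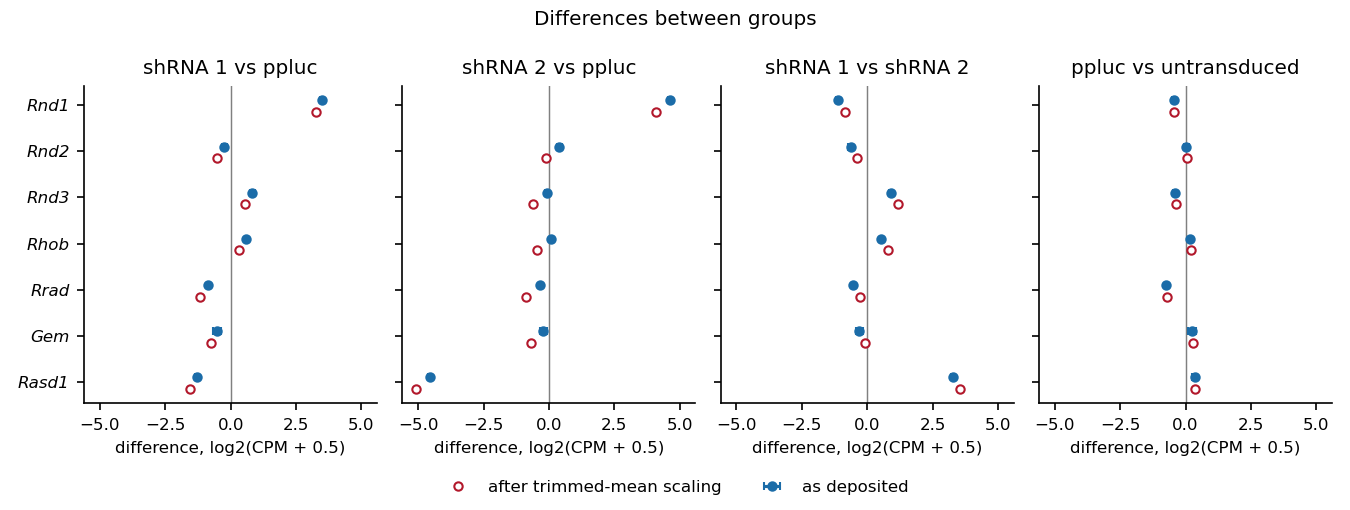
Difference between groups (x axis, log2(CPM + 0.5)) for the 7 fitted genes (y axis) in 4 comparisons, as deposited with the limma SE (filled) and after trimmed-mean scaling (open). Rnd1 lay at 3.51 and 4.61 and Rasd1 at -1.27 and -4.56 against ppluc, while the shRNA 2 values of Rnd2 and Rhob changed sign with the scaling. Both shRNA comparisons share the ppluc libraries.

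The spread of calls over all features sets these values in context. With shRNA 1 against ppluc, 73.4% of the 12493 features passed a limma adjusted p under 0.05, 54.7% higher and 18.7% lower, and of the 7 genes 3 were higher (Rnd1, Rnd3, Rhob) and 4 lower (Rnd2, Rrad, Gem, Rasd1). With shRNA 2, 86.1% of features passed, 65.0% higher and 21.1% lower, and of the 7 genes 2 were higher (Rnd1, Rnd2) and 2 lower (Rrad, Rasd1). After scaling, 1 was higher and 5 lower with shRNA 2, where 40.2% of features were called higher and 40.8% lower. With shRNA 1 the scaled counts were 3 and 4, beside 33.8% and 33.7%. For ppluc against untransduced cells 57.2% passed, 24.9% higher and 32.3% lower, and 2 genes were higher (Rhob, Rasd1) and 3 lower (Rnd1, Rnd3, Rrad). Between the shRNAs 81.0% passed, 27.7% higher with shRNA 1 and 53.3% lower, beside 3 and 3 of the genes, and after scaling 38.9% and 38.8%, beside 3 and 3. For the mean of both shRNAs 83.2% passed, 64.4% higher and 18.7% lower, beside 3 and 3 of the genes, and after scaling 37.7% and 39.2%, beside 1 and 4. The libraries of the groups compared did not overlap for 76.6% of features with shRNA 1, 85.2% with shRNA 2, 81.1% between the shRNAs and 64.4% for the control vector, and for 7, 4, 7 and 5 of the 7 genes. The genes were chosen with these values known, so nothing is read from their counts. The median difference of the 7 genes was -0.24 with shRNA 1 and -0.08 with shRNA 2, beside 0.26 and 0.50 over all features.

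The direct partners of the Rnd proteins were taken as a list of 23 genes (plexins, ROCK kinases, the GTPase-activating proteins Arhgap5 and Arhgap35, and others), of which 19 were tested. With shRNA 1, 9 rose and 8 fell, with a median of 0.10. With shRNA 2, 13 rose and 3 fell, with a median of 0.47. After scaling these splits were 5 and 11, and 6 and 8. Over all features 54.7% were called higher and 18.7% lower with shRNA 1, with a median of 0.26. With shRNA 2 the shares were 65.0% and 21.1%, with a median of 0.50. After scaling they were 33.8% and 33.7%, and 40.2% and 40.8%. The same shares and medians apply to the lists below. Arhgap35 encodes the RhoA-inactivating protein that Rnd proteins recruit. Its levels were 438 and 401 CPM in the untransduced and ppluc controls, and 180 and 126 CPM in the shRNA 1 and shRNA 2 groups. Against ppluc it fell by 1.16 ± 0.04 and 1.67 ± 0.04 (limma adjusted p = 1.3e-13 and 1.9e-16). The related Arhgap5 fell by 0.70 ± 0.05 with shRNA 1 but rose by 0.77 ± 0.05 with shRNA 2, or by 0.23 after scaling (limma adjusted p = 2.0e-09 and 1.7e-10 as deposited). Ubxn11 encodes socius, a protein that binds Rnd proteins, and it rose from 0.755 CPM with ppluc to 7.94 and 6.62 CPM, by 2.75 ± 0.14 and 2.50 ± 0.14 (limma adjusted p = 5.1e-12 and 4.7e-12). Of the membrane proteins Flrt3 and Unc5b, which work with Rnd1 in frog embryos, Flrt3 rose with both shRNAs, by 0.59 ± 0.07 and 1.45 ± 0.07 (limma adjusted p = 5.2e-07 and 9.7e-13). Unc5b was higher with ppluc than without a vector, by 1.26 ± 0.05 (limma adjusted p = 1.6e-12).

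Of the plexins on that list, receptors of semaphorins, 8 were tested. With each shRNA 4 rose and 2 fell as deposited, and after scaling 2 were higher and 5 lower with shRNA 1 and 1 was higher and 5 lower with shRNA 2. The shares over all features are those given above for the Rnd partners. Plxna2 rose by 0.59 ± 0.06 and 0.90 ± 0.06 (limma adjusted p = 1.9e-07 and 2.3e-10), or by 0.32 and 0.36 after scaling. Plxna2 was also higher with ppluc than without a vector, by 0.55 ± 0.06 (limma adjusted p = 9.8e-07). Plxna4, which is named here after its values were seen, went from 124 CPM with ppluc to 55.8 and 73.2 CPM, with differences of -1.14 ± 0.10 and -0.77 ± 0.10 (limma adjusted p = 1.1e-08 and 8.8e-07). Plxnb1 had shRNA 1 and shRNA 2 differences of 0.036 ± 0.07 and -0.14 ± 0.07 (limma adjusted p = 0.66 and 0.075), and values of -0.24 and -0.68, both past the threshold, after scaling. Plxnd1, at 4.47 CPM with ppluc, fell with shRNA 1 by 1.30 ± 0.20 (limma adjusted p = 1.1e-05), and its shRNA 2 value was 0.26 ± 0.20 as deposited and -0.23 after scaling (limma adjusted p = 0.23 as deposited).

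Effectors of RhoA and ROCK did not move as one group. Of 26 genes 21 were tested. With shRNA 1, 14 rose and 6 fell (median 0.29), and with shRNA 2, 12 rose and 8 fell (median 0.37), or 9 and 8, and 6 and 12, after scaling. Over all features 54.7% rose and 18.7% fell with shRNA 1 (median 0.26). With shRNA 2 these were 65.0% and 21.1% (median 0.50). The kinases Rock1 and Rock2 fell with shRNA 1, by 0.30 ± 0.05 and 0.22 ± 0.05 (limma adjusted p = 1.0e-05 and 0.00075). With shRNA 2 they were above ppluc by 0.37 ± 0.05 and 0.53 ± 0.05 as deposited (limma adjusted p = 3.5e-07 and 1.1e-08), but at -0.17 and -0.011 after scaling. Myl12a, a regulatory light chain of non-muscle myosin, fell with shRNA 2 from 606 to 111 CPM, by 2.45 ± 0.05 (limma adjusted p = 9.8e-18). With shRNA 1 it rose to 796 CPM, by 0.39 ± 0.05 (limma adjusted p = 1.0e-06), but the scaled value of 0.12 did not pass. Diaph3, a formin, rose by 2.16 ± 0.12 and 2.09 ± 0.12 (limma adjusted p = 3.3e-11 and 1.3e-11).

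**Figure D4:**
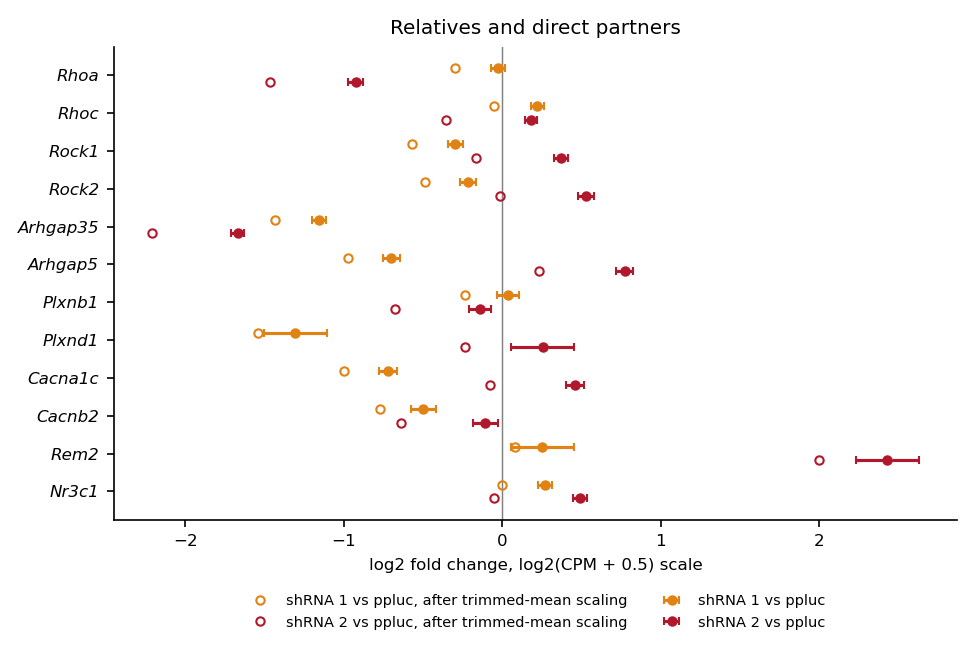
Log2 fold change against ppluc (x axis) for 12 relatives and direct partners (y axis) with shRNA 1 and shRNA 2, as deposited with the limma SE (filled) and after trimmed-mean scaling (open). Arhgap35 lay below 0 with both shRNAs under both scalings, and the shRNA 2 values of Rhoc, Rock1, Rock2, Plxnd1, Cacna1c and Nr3c1 crossed 0 with the scaling.

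Other small GTPases of the cytoskeleton, and the regulators of such GTPases, also gave mixed values. Cdc42, which drives filopodia and polarity, fell with shRNA 1 from 284 to 125 CPM, by 1.18 ± 0.06 (limma adjusted p = 2.6e-12), and lay at 0.084 ± 0.06 with shRNA 2 as deposited and -0.45 after scaling. Rac3, a Rac isoform prominent in neurons, fell with both, by 0.96 ± 0.11 and 2.60 ± 0.11 (limma adjusted p = 2.8e-07 and 1.2e-13). Among 32 exchange factors tested, 20 rose and 9 fell with shRNA 1 and 16 rose and 11 fell with shRNA 2, or 12 and 12, and 8 and 18, after scaling. Dock9, an exchange factor of Cdc42, rose from 3.75 CPM with ppluc to 13.3 and 60.1 CPM, by 1.71 ± 0.11 and 3.85 ± 0.11 (limma adjusted p = 1.1e-10 and 6.0e-16). Among 34 GTPase-activating proteins and dissociation inhibitors tested, 20 rose and 7 fell with shRNA 1 and 16 rose and 11 fell with shRNA 2, or 13 and 11, and 4 and 21, after scaling. Beside both lists, 54.7% of all features rose and 18.7% fell with shRNA 1, and 65.0% and 21.1% with shRNA 2. The scaled shares were 33.8% and 33.7%, and 40.2% and 40.8%. Arhgap11a, a RhoA-directed protein of dividing cells, rose with shRNA 2 from 3.43 to 36.1 CPM, by 3.22 ± 0.10 (limma adjusted p = 3.2e-15). The T antigen transcript was also highest in that group, and a link between the 2 was not tested.

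The calcium-channel and binding partners of the RGK proteins were a list of 36 genes, 32 of them tested. With shRNA 1, 10 rose and 10 fell (median 0.01), and with shRNA 2, 15 rose and 12 fell (median 0.01), or 5 and 20, and 6 and 20, after scaling. The scaled shares over all features were 33.8% higher and 33.7% lower with shRNA 1, and 40.2% and 40.8% with shRNA 2. Cacna1c, the pore subunit of the L-type channel, had levels of 222 and 138 CPM in the untransduced and ppluc controls and of 83.6 and 189.9 CPM in the shRNA 1 and shRNA 2 groups. It fell with shRNA 1 by 0.72 ± 0.06 (limma adjusted p = 2.4e-09), and its shRNA 2 difference of 0.46 ± 0.06 (limma adjusted p = 5.0e-07) became -0.080 after scaling. Like Rrad it was lower with ppluc than in untransduced cells, by 0.68 ± 0.06 (limma adjusted p = 1.4e-08). Cacnb2, the main beta subunit of cardiac L-type channels, fell with shRNA 1 by 0.50 ± 0.08 (limma adjusted p = 2.2e-05), and with shRNA 2 it lay at -0.11 ± 0.08 as deposited (limma adjusted p = 0.22) and at -0.64, past the threshold, after scaling. Cacna1g, a T-type pore subunit, fell from 1060 CPM with ppluc to 434 and 103 CPM, by 1.29 ± 0.10 and 3.38 ± 0.10 (limma adjusted p = 2.8e-09 and 1.8e-15).

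For Rasd1, partners and other genes known to be induced by glucocorticoids were put in 1 list of 28, with 22 tested. With shRNA 1, 13 rose and 7 fell, and with shRNA 2, 9 rose and 9 fell (medians 0.29 and 0.11), or 9 and 9, and 4 and 15, after scaling. Over all features 54.7% rose and 18.7% fell with shRNA 1 (median 0.26). With shRNA 2 these were 65.0% and 21.1% (median 0.50). The glucocorticoid-induced genes did not share 1 direction. Fkbp5, a co-chaperone of the glucocorticoid receptor, rose from 7.59 CPM with ppluc to 24.1 and 61.0 CPM, by 1.61 ± 0.08 and 2.93 ± 0.08 (limma adjusted p = 6.7e-12 and 5.6e-16). Tsc22d3 (Gilz) rose with shRNA 1 by 0.80 ± 0.05 and fell with shRNA 2 by 0.60 ± 0.05 (limma adjusted p = 1.5e-10 and 2.6e-09). Pdk4, an inhibitor of pyruvate dehydrogenase, fell by 0.80 ± 0.07 and by 1.39 ± 0.07 (limma adjusted p = 1.4e-08 and 2.2e-12). The receptor gene Nr3c1, at 203 CPM with ppluc, lay at 0.27 ± 0.04 and 0.49 ± 0.04 as deposited and at -0.0024 and -0.050 after scaling.

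Genes of the Gi class, on which Rasd1 acts, and of adenylyl cyclases did not share 1 direction either. Gnai2, a Gi alpha subunit, fell with both shRNAs, by 1.07 ± 0.04 and 0.40 ± 0.04 (limma adjusted p = 5.3e-13 and 1.1e-07). Gnao1, the Go alpha subunit, fell by 1.15 ± 0.07 and 1.38 ± 0.07 (limma adjusted p = 8.6e-11 and 2.1e-12). The adenylyl cyclase gene Adcy5, prominent in heart, fell by 1.31 ± 0.06 and 0.96 ± 0.06 (limma adjusted p = 2.6e-12 and 4.3e-11). Gnai3 rose with shRNA 1 by 0.61 ± 0.05, or 0.34 after scaling (limma adjusted p = 8.6e-09 as deposited), and with shRNA 2 it lay at 0.11 ± 0.05 as deposited (limma adjusted p = 0.059) and at -0.43 after scaling. Of 24 other Ras-like GTPases tested, 11 rose and 5 fell with shRNA 1 and 14 rose and 5 fell with shRNA 2, or 6 and 10, and 8 and 13, after scaling. Over all features 54.7% rose and 18.7% fell with shRNA 1, and 65.0% and 21.1% with shRNA 2. Nras fell with both, with differences of -2.63 ± 0.10 and -0.98 ± 0.10 (limma adjusted p = 1.0e-13 and 1.7e-08), and it was higher with ppluc than without a vector, by 1.28 ± 0.10 (limma adjusted p = 3.3e-09).

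Likeness to other genes was measured over the 4 groups as the root mean square difference of centred log2(CPM + 0.5) group means, among 11313 features with a symbol. With 4 points that share libraries, many genes lie close to a small profile, and the distances are a description. Nearest to Rnd1 were Ulk4 at 0.33, Cyfip2, a subunit of the WAVE actin-regulatory complex, at 0.39 and Atf3, a stress-induced transcription factor, at 0.41. Ulk4 stood at 0.315 CPM in untransduced cells and 0.189 CPM with ppluc, below the added 0.5, so its distance depends on that constant. The same limit applies to Sned1, named below, at 0.518 CPM with shRNA 2, and to Itih4, at 0.226 to 0.556 CPM over the groups. Cyfip2, at 0.699 CPM in untransduced cells and 0.874 CPM with ppluc, was also close to that constant. Atf3 had group levels of 1.28 (untransduced), 1.66 (ppluc), 10.7 (shRNA 1) and 35.4 CPM (shRNA 2). Nearest to Rasd1 were Sned1 at 0.12, Slc16a12, a transporter gene, at 0.21 and Smtnl2, a smoothelin-like gene, at 0.22, and Slc16a12 went from 128 CPM with ppluc to 48.8 and 6.94 CPM. Nearest to Rrad were Slc6a17 at 0.06 and the mitochondrially encoded Mt-nd1 and Mt-cyb, subunits of respiratory complexes, at 0.07 and 0.09. Rnd3 was nearest to Reep6, Gtpbp3 and Ikbkap, Rhob to Brap, Gpatch3 and Acbd5, Rnd2 to Nicn1, Rpl31 and Gskip, and Gem to Lgalsl, Rpp25 and Itih4, with distances from 0.01 to 0.04. Among the genes themselves, Rnd2 and Gem lay 0.22 apart and Rnd3 and Rhob 0.28 apart, while Rnd1 and Rasd1 lay 3.65 apart.

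**Figure D5:**
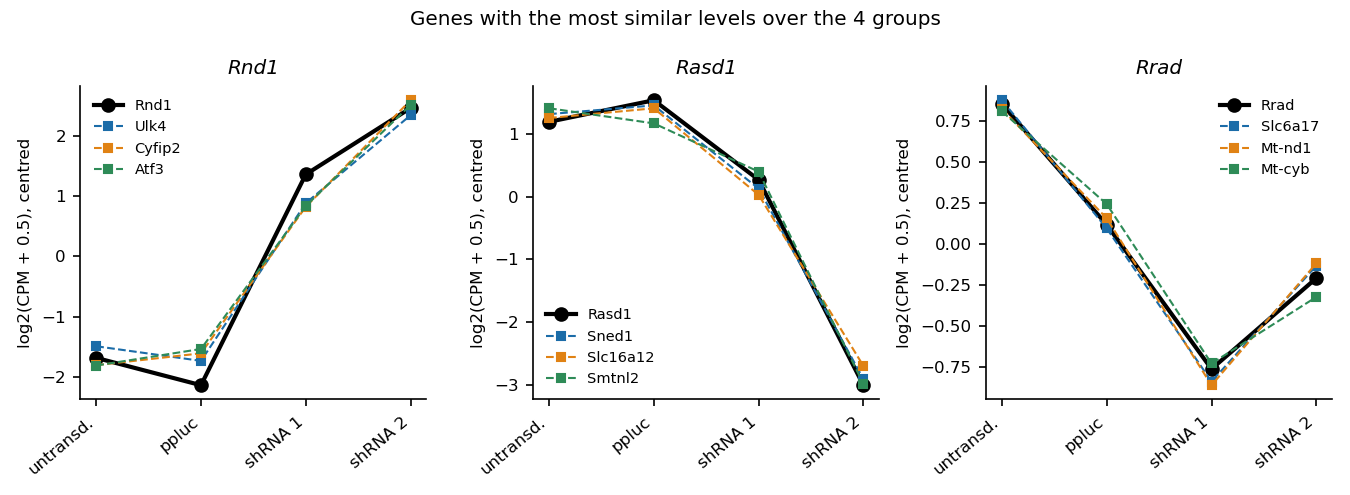
Centred log2(CPM + 0.5) group means (y axis) of Rnd1, Rasd1 and Rrad (black) and of the 3 nearest genes to each (dashed) over the 4 groups (x axis), as single group values with no error bars. The nearest gene lay at a root mean square distance of 0.33 from Rnd1, 0.12 from Rasd1 and 0.06 from Rrad. Ulk4, the nearest to Rnd1, was below 0.5 CPM in the untransduced and ppluc groups.

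The values of the nearest fitted neighbours on the chromosome are given as a description, as deposited and without scaling. The median over all features was 0.26 with shRNA 1 and 0.50 with shRNA 2, so neighbour values near these are those of a usual feature. Rnd1 and Rasd1 lay near the ends of the ranking of all features, so most genes lie far from them. Ddx23, an RNA helicase gene 6.41 kb from Rnd1, lay at 0.57 ± 0.04 with shRNA 1 and 0.68 ± 0.04 with shRNA 2. On the other side Ccdc65, 27.2 kb away, lay at 1.31 ± 0.11 and 0.60 ± 0.11. Med9, a Mediator subunit gene 0.995 kb from Rasd1, rose by 0.71 ± 0.08 with shRNA 1 and fell by 1.17 ± 0.08 with shRNA 2 (limma adjusted p = 2.1e-07 and 7.2e-11). Pemt, on the other side at 7.65 kb, lay at -0.29 ± 0.16 and 0.56 ± 0.16. Vat1, 2.01 kb from Rnd2, rose by 0.57 ± 0.04 with shRNA 1 and fell by 1.47 ± 0.04 with shRNA 2, the reverse of the order of Rnd2. Against untransduced cells the control vector alone went with a lower Rnd1 (-0.46 ± 0.08), Rnd3 (-0.41 ± 0.08) and Rrad (-0.74 ± 0.04) and a higher Rasd1 (0.34 ± 0.08) and Rhob (0.18 ± 0.05). For Rnd1, Rnd3 and Rasd1 these lie opposite in sign to the shRNA 1 difference from ppluc as deposited, and for Rrad and Rhob they have the same sign. The ppluc libraries enter the 2 differences with opposite signs, which favours opposite signs in advance, so nothing is read from this.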

How the data were processed

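PolyA-selected stranded RNA libraries were sequenced with paired 150-bp reads, per the labels' protocols. The CPM values are read counts scaled to the library total, deposited as the authors' averages over the 3 libraries of a group. TPM values, which also correct for transcript length, were deposited by the authors as like averages. Rnor_6.0 is named in the submitters' processing notes. The same notes name DESeq2 without its role. Aligner and counter: not given in the sources used here. Single libraries were recovered from the CPM averages as the whole reads that return the stored digits: 99.6 to 99.8% of features per group had 1 solution, 1998 to 2000 of 2000 low averages per group were returned exactly, and 0 of 2000 shifted values had a solution. Simulated libraries were used to test this step and the fit. The check on stored averages covered low values only. Where several solutions remained, the one with the widest spread was kept. The library total minus the sum of recovered reads ran from -494474 (untransduced c) to 470948 (ppluc c). Library values of some abundant features may therefore be wrong. The GTPase genes and Sbk2 had 1 solution in every group. Features that reached 0.5 CPM in 3 or more of the 12 libraries (12493 of 32761) were fitted as log2(CPM + 0.5), pseudocount 0.5, with limma 3.58.1 (lmFit, contrasts, eBayes with trend) in R 4.3.3, with Benjamini-Hochberg adjustment over all of them and a threshold of 0.05. Alternatives were other pseudocounts, filters and scalings, voom weights, groups fitted alone and leaving out each library. Python 3.11.15, numpy 2.4.6, pandas 2.3.3 and matplotlib 3.10.9 did the rest.

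The members and gene lists were chosen with earlier results of these data known. The text names the 8 genes, Sbk2, 13 fixed relatives and partners, up to 4 genes of smallest p per list and comparison, the 3 nearest profiles and the nearest neighbours, and prints part of them. The transgenes, and the summed marker levels they stand beside, are given as values. Counting intervals and floors cover counting error only. Some results are not reported here.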

Additional observations from a re-analysis of the deposited data

Results flagged for a closer look

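In 15 of the genes named by the rule, every shRNA 1 library lay on one side of the ppluc libraries and every shRNA 2 library on the other. For Rnd2, the only one of the 8 GTPases to do so, the shRNA 1 value minus the shRNA 2 value was -0.64 on the log2 scale, a description since Rnd2 was chosen with its levels known, and after scaling both shRNA groups lay below ppluc. After scaling the same held for Adcy6, Arhgap1, Arhgef10, Arhgef7, Cacna1c, Rock1 and Rock2, whose shRNA differences from ppluc were then both below 0. For the other 14 genes the direction of the difference between the shRNAs is fixed by this choice, and the difference was not tested independently of it; 81.0% of all features passed in that comparison. It was higher with shRNA 1 by 2.84 for Myl12a, 1.86 for Arhgef10, 1.61 for Rit1, 1.57 for Arhgap1, 1.18 for Prkaca, 1.10 for Ezr, 1.04 for Rhobtb1 and 0.97 for Adcy6. It was lower with shRNA 1, at -1.47 for Arhgap5, -1.42 for Arhgef7, -1.18 for Cacna1c, -1.16 for Rhobtb2, -0.74 for Rock2 and -0.66 for Rock1.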

How the results depend on the processing

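The values of the 8 GTPases are descriptions here too. Under trimmed-mean and median-of-ratios scaling, genes called higher and lower numbered 4219 and 4212, or 4217 and 4211, with shRNA 1, against 6837 and 2333 as deposited. With shRNA 2 they numbered 5018 and 5098, or 5131 and 4981, against 8125 and 2635, and for the mean of both shRNAs 4710 and 4894, or 4809 and 4828, against 8049 and 2340. In the order trimmed-mean then median-of-ratios, the shRNA 2 differences became -0.12 and -0.10 for Rnd2, -0.62 and -0.60 for Rnd3, -0.47 and -0.45 for Rhob and -0.67 and -0.66 for Gem. The differences of the shRNA mean became -0.31 and -0.30 for Rnd2, -0.029 and -0.019 for Rnd3 and -0.076 and -0.0655 for Rhob. Those of shRNA 1 became -0.052 and -0.052 for Rhoc, -0.24 and -0.24 for Plxnb1 and -0.00243 and -0.00231 for Nr3c1. With shRNA 2 they became -0.36 and -0.34 for Rhoc, -0.080 and -0.059 for Cacna1c, -0.17 and -0.15 for Rock1, -0.050 and -0.030 for Nr3c1 and, under trimmed-mean scaling, -0.011 for Rock2. Nr3c1 between the shRNAs became 0.048 and 0.027. Between the shRNAs, Gem lay at -0.26 with a pseudocount of 1, and Sbk2 did not pass with voom weights, at 0.67. By CPM instead of TPM, Rnd1 made up 5.05%, 4.66%, 26.1% and 56.7% of the Rnd sum and Rnd3 87.9%, 86.0%, 70.3% and 37.5%, and Rrad 97.1% and 94.3% of the RGK sum with shRNA 1 and shRNA 2. Leaving out single libraries gave -0.29 to -0.20 for Rnd2 with shRNA 1 (nearest 0 without ppluc a), -0.21 (without ppluc c) to 0.025 (without ppluc a) for Rnd3 with shRNA 2, -0.44 to -0.27 for Gem with the shRNA mean (nearest 0 without ppluc a) and -0.36 to -0.21 for Gem between the shRNAs. The cause of these changes was not tested beyond the scaling itself. No paired analysis was possible because the recovered libraries carry no replicate numbers.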
